A study of Rattus norvegicus with 20 samples.

Results

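Many of the transcription factors that build the heart in the embryo stay on in the adult, and 10 of them were examined in the right ventricle of young rats under pressure load: Gata4 and Gata6, Nkx2-5, Tbx5 and Tbx20, Hand1 and Hand2, and Mef2a, Mef2c and Mef2d. The genes were taken by symbol from a table of 18282 transcript IDs, and 9 of the 10 matched, each through 1 ID. Mef2c was not analysed here. Hand1 stayed below the minimum of expression for testing, a normalized count of at least 10 in at least 4 libraries, so that 8 genes were tested.

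The heart factors work as a set of DNA-binding proteins that occupy shared enhancers and raise each other's activity. GATA factors are zinc finger proteins, NKX2-5 is a homeodomain protein, TBX5 and TBX20 belong to the T-box family, HAND1 and HAND2 are basic helix-loop-helix proteins, and MEF2 proteins are MADS-box factors whose activity is held down by class IIa histone deacetylases. In the adult ventricle, GATA4 and the MEF2 proteins are known for taking part in growth under load, TBX5 is better known for the atria and the conduction system, and HAND2 and TBX20 act in the growth of the embryonic chambers, in which HAND1 marks mainly the left ventricle and HAND2 the right.

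Ventricles of Wistar rats, an outbred strain, were collected after pulmonary banding, in which a band narrows the pulmonary artery and the right ventricle pumps against a raised pressure, or after a sham operation. Banded rats at 4 weeks (n = 5) were set against sham rats at 4 weeks (n = 5), all 7 weeks old, and banded rats at 8 weeks (n = 4) against sham rats at 8 weeks (n = 5), all 11 weeks old. The second banding replicate at 8 weeks was not analysed here. Time after surgery and age cannot be told apart, and the labels give no batch, sex or degree of narrowing. Nothing in them says that each library came from a separate rat, so that p-values measure only the spread between these samples, which may be technical.

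Recovered reads ran from 2.70 to 8.54 M per library, with a median of 5.79 M. None of the 9 ventricular muscle markers with a row was at 0 in all 19 libraries, and their summed normalized count ran from 370692 to 630803. Transcripts of atrial muscle were present too: the atrial light chain Myl7 ran from 24.7 to 17580 normalized counts, and 7 of the 19 libraries had more than 1000. Those 7 were replicate 2 of banding at 4 weeks, replicates 1 and 3 of sham at 4 weeks, replicate 3 of banding at 8 weeks and replicates 1, 2 and 5 of sham at 8 weeks. Replicate 1 of sham at 8 weeks stood highest, and results that rest on these libraries are given with and without them. That library also had the fewest recovered reads of the sham libraries, 2.81 M, against 4.74 M or more in the others.

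The 3 genes that fell after banding at 8 weeks, or at both times, were Mef2a, Tbx5 and Gata6, and the 250 bases before their annotated starts are shown because they are the place where the known heart factor motifs were searched. The sequences are from RefSeq on GRCr8, on the coding strand, at chr1:130392163-130392412 (minus strand) for Mef2a, chr12:42395360-42395609 (minus strand) for Tbx5 and chr18:2460659-2460908 (plus strand) for Gata6. Capitals mark a match to a searched motif.
Mef2a: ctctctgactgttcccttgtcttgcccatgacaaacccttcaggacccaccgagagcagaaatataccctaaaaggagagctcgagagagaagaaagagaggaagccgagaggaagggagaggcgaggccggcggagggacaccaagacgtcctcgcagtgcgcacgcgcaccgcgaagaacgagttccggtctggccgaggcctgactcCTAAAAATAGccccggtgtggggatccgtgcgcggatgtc
Tbx5: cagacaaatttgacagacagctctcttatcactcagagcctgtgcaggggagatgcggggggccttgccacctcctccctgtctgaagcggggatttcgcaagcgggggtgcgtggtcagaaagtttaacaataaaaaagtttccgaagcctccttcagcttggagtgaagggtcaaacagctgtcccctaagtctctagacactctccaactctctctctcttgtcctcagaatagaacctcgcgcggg
Gata6: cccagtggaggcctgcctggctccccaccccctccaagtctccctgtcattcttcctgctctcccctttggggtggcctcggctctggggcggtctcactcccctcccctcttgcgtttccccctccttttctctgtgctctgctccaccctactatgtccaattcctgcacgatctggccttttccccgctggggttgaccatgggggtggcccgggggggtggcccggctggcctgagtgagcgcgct
The motifs were AGATAA for GATA factors, CTANNNNTAG for MEF2, TNAAGTG for NKX2-5 and AGGTGT for T-box factors, each on both strands, and the matches found did not overlap. Of the 8 members with a promoter in the table, Mef2a held a MEF2 match, CTAAAAATAG, at bases -40 to -31 from its start, and such a match stood in 3.41% of all 33469 rat promoters of that length. Hand2 held a GATA match at bases -172 to -167, a motif found in 10.3% of all promoters. The NKX2-5 letters, present in 9.89% of promoters, and the T-box letters, present in 11.6%, had no match in these 8 windows, which says only that those letters are not there. The 3 windows shown held more G and C than the median promoter, with 66.0% in Gata6, 59.6% in Mef2a and 53.2% in Tbx5, beside 51.2% in the median of all promoters.

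Counted together, 2 of the 8 tested genes were called at 4 weeks (limma, Benjamini-Hochberg adjusted p under 0.05), where 19.1% of all 10926 IDs tested were called, and 4 of the 8 at 8 weeks, where 33.4% were called. At 4 weeks both were lower, beside 9.82% of all IDs called lower, and 0 were higher, beside 9.27% (0 higher in edgeR and DESeq2 too). At 8 weeks 3 were lower, beside 16.6% of all IDs, and 1 was higher, beside 16.7%. An unadjusted p under 0.05 was found for 4 of the 8 at each time, beside 30.4% of all IDs at 4 weeks and 42.2% at 8 weeks. Libraries of banding and sham did not overlap for 2 of the 8 at 4 weeks, beside 13.3% of all IDs, and for 3 of the 8 at 8 weeks, beside 25.2%. With 8 genes these counts lie near the shares over all IDs, and the results below are about the single genes. The median log2 fold change of the 8 was -0.16 at 4 weeks, beside 0.00 over all IDs, and -0.24 at 8 weeks, beside 0.01. No member changed by 2-fold or more, while 3.94% of all IDs did at 4 weeks and 7.53% at 8 weeks.

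**Figure D1:**
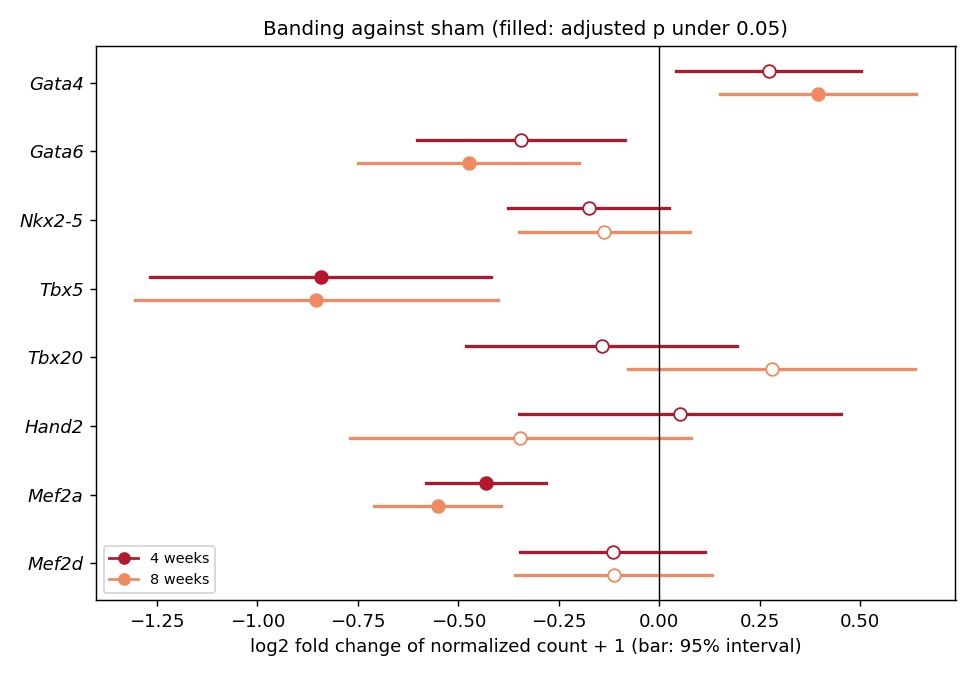
Log2 fold change of banded against sham ventricles (x axis) for the 8 tested genes (y axis) at 4 and 8 weeks, with 95% intervals as bars and filled points where the adjusted p was under 0.05. Tbx5 and Mef2a lie to the left of 0 at both times, and Gata4 lies to the right and Gata6 to the left as filled points at 8 weeks only.

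Mef2a was the member with the smallest p at both times, and the other measured MEF2 gene, Mef2d, was not called. Mef2a (NM_001014035), which encodes the main MEF2 protein of the adult heart muscle in mice, had 1128, 1060.0, 1185, 1188 and 1129 normalized counts in banded ventricles at 4 weeks, against 1659, 1618, 1319, 1605 and 1494 in sham ventricles. The 8-week values of Mef2a were 1041, 1059, 1014 and 1117 in banded ventricles, against 1676, 1589.7, 1721, 1424 and 1368 in sham ventricles. Every banded library lay below every sham library at both times, with a gap between 1188 and 1319. Mef2a averaged 1138 ± 52.3 in banding and 1539 ± 138 in sham at 4 weeks (SD, n = 5 each), and 1058 ± 43.8 in banding (n = 4) and 1556 ± 155 in sham (n = 5) at 8 weeks. The log2 fold change was -0.43 ± 0.07 at 4 weeks (SE, limma, Benjamini-Hochberg adjusted p = 0.000149) and -0.55 ± 0.08 at 8 weeks (adjusted p = 7.66e-06), so that Mef2a fell by 25.8% at 4 weeks and fell by 31.8% at 8 weeks. In tissue RNA, fewer cells of a type and less RNA per cell cannot be told apart.

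**Figure D2:**
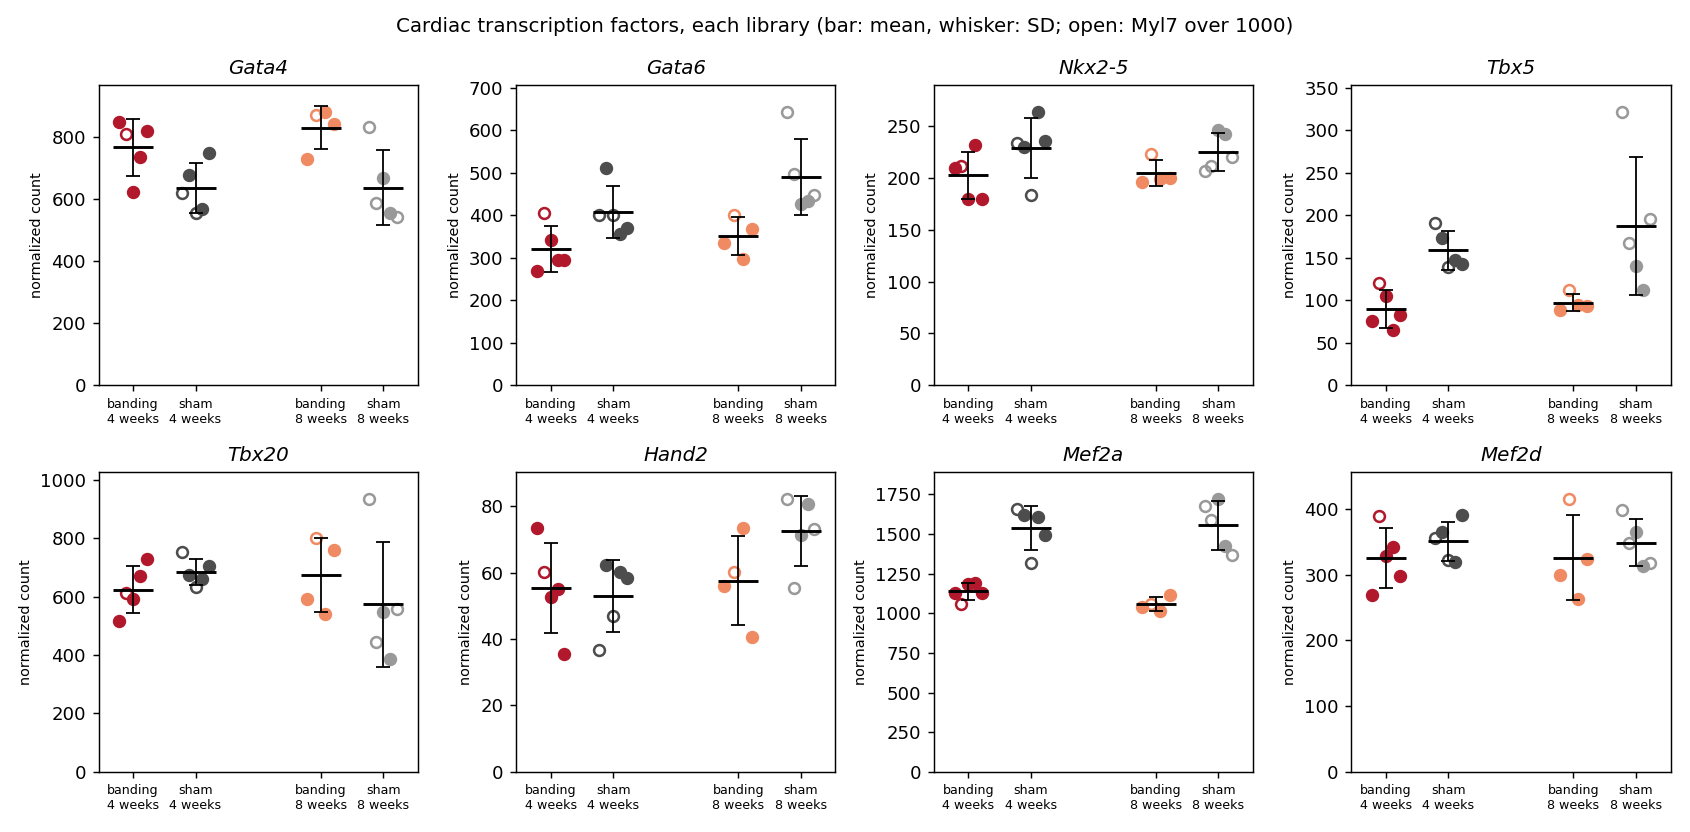
Normalized count (y axis, from 0) of the 8 tested genes in every library, with banded ventricles left of sham ventricles at 4 and 8 weeks (x axis). Bars are means, whiskers are SD, and open circles are the 7 libraries with more than 1000 Myl7 counts. Mef2a and Tbx5 separate banding from sham at both times and Gata6 at 8 weeks.

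Mef2d (NM_030860) ranged from 269 to 389 normalized counts in banded ventricles at 4 weeks, against 319 to 392 in sham ventricles, and from 264 to 416 in banded ventricles at 8 weeks, against 314 to 399 in sham ventricles. The groups overlapped at both times. Its log2 fold change was -0.12 ± 0.11 at 4 weeks (adjusted p = 0.533), with a 95% interval of -0.35 to 0.12, and -0.11 ± 0.12 at 8 weeks (adjusted p = 0.494), with an interval of -0.36 to 0.13. The ratio of Mef2a to Mef2d inside each library does not depend on how libraries are scaled, and, as counts were not divided by length, it compares groups and not the 2 genes. It averaged 3.56 ± 0.54 in banding and 4.41 ± 0.48 in sham at 4 weeks, with overlapping libraries. At 8 weeks it ran from 2.55 to 3.84 in banded ventricles, against 4.20 to 4.71 in sham ventricles, with no overlap.

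Genes that hold MEF2 proteins down, or release them, were read beside them from a list of 20 repressors and kinases, of which 15 were tested. Of all IDs, 9.27% were called higher and 9.82% lower at 4 weeks, and 16.7% and 16.6% at 8 weeks. At 4 weeks 30.4% of all IDs had an unadjusted p under 0.05 (limma). At 4 weeks 0 rose and 3 fell (median log2 fold change -0.07, beside 0.00 over all genes; 5 of the 15 had an unadjusted p under 0.05), and at 8 weeks 1 rose and 3 fell (median -0.09, beside 0.01). Hdac5, a class IIa histone deacetylase that binds MEF2 proteins, averaged 514 normalized counts in banding and 673 in sham at 4 weeks, a log2 fold change of -0.39 ± 0.07 (adjusted p = 0.000233). At 8 weeks Hdac5 averaged 548 ± 25.0 in banding and 759 ± 30.9 in sham, a log2 fold change of -0.47 ± 0.07 (adjusted p = 2.97e-05). Its libraries did not overlap at either time. Hdac9, of the same class, fell by 0.30 on the log2 scale at 4 weeks (adjusted p = 0.032), as did Prkd3, a kinase of the protein kinase D family that phosphorylates class IIa deacetylases, by 0.18 (adjusted p = 0.0367). At 8 weeks Mapk14, the p38 kinase that activates MEF2 proteins, fell by 0.23 (adjusted p = 0.019). Hdac2, a class I deacetylase, fell by 0.25 (adjusted p = 0.0118). Cabin1, a repressor that binds calcineurin and MEF2, rose by 0.38 (adjusted p = 0.00588). At the other time none of these 5 was called, with -0.17 for Hdac9 and -0.04 for Prkd3 at 8 weeks, and -0.16 for Mapk14, -0.07 for Hdac2 and 0.08 for Cabin1 at 4 weeks (adjusted p = 0.221, 0.694, 0.122, 0.57 and 0.65). The calls of Hdac9 and Prkd3 at 4 weeks and of Mapk14 and Hdac2 at 8 weeks were lost without the 7 libraries with high Myl7 (adjusted p = 0.0506, 0.188, 0.132 and 0.0729), with log2 fold changes of -0.34, -0.15, -0.23 and -0.24 from fewer libraries. That of Hdac9 was also lost without any 1 of replicates 1, 2, 3 and 5 of banding or 2 and 4 of sham (adjusted p = 0.0539 to 0.0896). Prkd3 lost its call without any 1 of replicates 1 to 4 of banding or 1, 2, 3 and 5 of sham (0.0503 to 0.0925). It also lost it in a fit of only the groups compared (adjusted p = 0.0515). Mapk14 lost its call without replicate 1 or 3 of banding or 3 of sham (0.0583 to 0.0721). Hdac5 stayed called at both times under all 33 alternative settings.

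Tbx5 had the largest change of the 8 tested genes at both times, except at 8 weeks without the 7 libraries with high Myl7, where Mef2a (-0.57) and Hand2 (-0.45) stood beyond Tbx5 (-0.44). Tbx20, its family member, was not called. Tbx5 (NM_001009964), the gene mutated in Holt-Oram syndrome in humans, had 74.9, 120.2, 105, 64.5 and 82.4 normalized counts in banded ventricles at 4 weeks, against 190.3, 174, 139, 147 and 142 in sham ventricles. The 8-week values of Tbx5 were 88.1, 112, 94.2 and 93.3 in banded ventricles, against 321, 167, 139.6, 112 and 195 in sham ventricles. Banded libraries lay below sham libraries at both times, narrowly at 8 weeks, where banding reached 111.8 and sham began at 112.2. The means were 89.4 ± 22.8 in banding and 158 ± 22.5 in sham at 4 weeks, and 96.9 ± 10.3 in banding and 187 ± 81.1 in sham at 8 weeks. The log2 fold change was -0.84 ± 0.21 at 4 weeks (limma, adjusted p = 0.00517), with a 95% interval of -1.27 to -0.42, and -0.85 ± 0.22 at 8 weeks (adjusted p = 0.00406), with an interval of -1.30 to -0.40. Read numbers behind these values ran from 44 to 248 per library, the lowest of the called members.

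The library with the most Myl7 also had the most Tbx5, and of the 7 libraries above 1000 Myl7 counts 2 were from banded and 5 from sham ventricles. Among libraries with more than 1000 Myl7 counts, Tbx5 was 120.2 in banding and 139 to 190.3 in sham at 4 weeks, and 112 in banding and 167 to 321 in sham at 8 weeks. Among the other libraries it was 64.5 to 105 in banding and 142 to 174 in sham at 4 weeks, and 88.1 to 94.2 in banding and 112 to 139.6 in sham at 8 weeks. Within each of these 4 pairs the banded libraries lay below the sham libraries, which had to be so, as the whole groups did not overlap. The order within the pairs thus adds nothing about atrial content. Without the 7 libraries, the log2 fold change was -0.92 at 4 weeks (adjusted p = 0.000714) and -0.44 at 8 weeks, where the call was lost (adjusted p = 0.107, 3 banded against 2 sham libraries). A fit that carried a score of atrial transcripts as a covariate gave -0.81 at 4 weeks (adjusted p = 0.000216) and -0.66 at 8 weeks (adjusted p = 0.00177). Leaving out replicate 1 of sham at 8 weeks, which held 17580 Myl7 and 321 Tbx5 counts, gave -0.64 at 8 weeks (adjusted p = 0.00935). The part of atrial tissue in these changes was not tested beyond those fits.

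**Figure D3:**
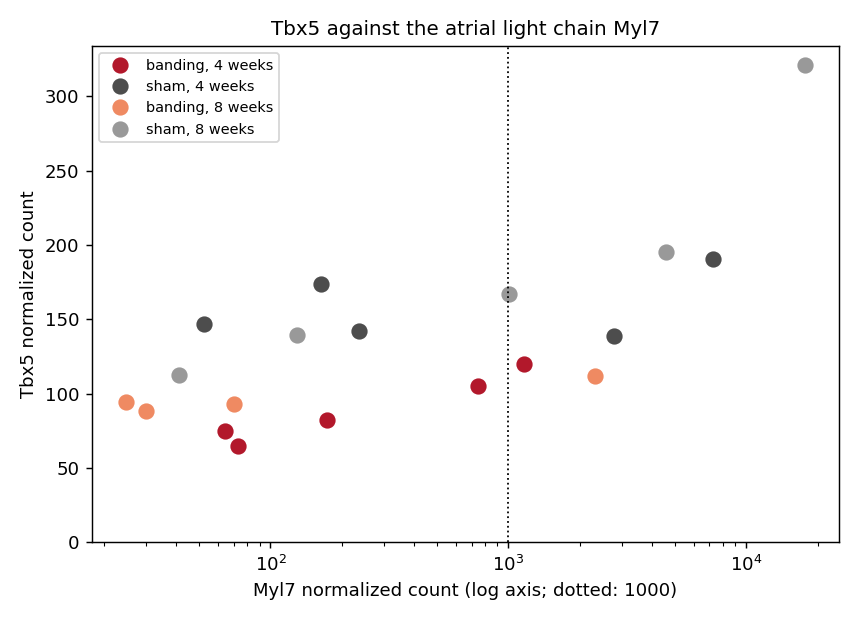
Tbx5 normalized count (y axis, from 0) against the atrial light chain Myl7 (x axis, log scale) in each of the 19 libraries, coloured by group, with a dotted line at 1000 Myl7 counts. Banded libraries lie below sham libraries of the same time over all libraries, and hence on either side of the line. The highest point is replicate 1 of sham at 8 weeks with 321 Tbx5 counts.

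Tbx20 (NM_001108132), which holds the adult cardiomyocyte state in mice, had 516, 611, 592, 671 and 729 normalized counts in banded ventricles at 4 weeks, against 752, 674, 634, 662 and 703 in sham ventricles. At 8 weeks it had 591, 801, 541 and 761 in banded ventricles, against 935, 445, 549, 385 and 556 in sham ventricles. The sham libraries at 8 weeks had the widest spread, with the library richest in Myl7 far above the other 4. The log2 fold change was -0.14 ± 0.16 at 4 weeks (adjusted p = 0.607) and 0.28 ± 0.17 at 8 weeks (adjusted p = 0.227). Without replicate 1 of sham at 8 weeks, the change at 8 weeks was 0.47 and was called (adjusted p = 0.00746). A fit with the atrial covariate gave 0.39, also called (adjusted p = 0.0473). Leaving out all 7 libraries with high Myl7 gave 0.44, which was not called (adjusted p = 0.0642). That fit was among the 31 alternatives in which Tbx20 was not called at 8 weeks. The ratio of Tbx20 to Tbx5 counts inside each library ran from 5.08 to 10.4 in banded ventricles, against 3.88 to 4.95 in sham ventricles, at 4 weeks, and from 5.74 to 8.15 in banded ventricles, against 2.66 to 3.93 in sham ventricles, at 8 weeks. The ratio was thus higher in every banded library than in every sham library of its time, the library with the highest Myl7 included.

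Gata4 and Gata6 moved in opposite directions at 8 weeks. Gata4 (NM_144730), a zinc finger factor needed for growth of the mouse heart under pressure load, had 849, 808, 622, 735 and 818 normalized counts in banded ventricles at 4 weeks, against 620.0, 679, 554, 569 and 749.7 in sham ventricles. At 8 weeks it had 729, 869.9, 880.0 and 841 in banded ventricles, against 833, 588, 666, 555 and 541 in sham ventricles. The groups overlapped at both times, at 8 weeks only through replicate 1 of sham. Gata4 averaged 767 ± 91.0 in banding and 634 ± 80.9 in sham at 4 weeks, a log2 fold change of 0.27 ± 0.11 that was not called (limma, adjusted p = 0.0924). It was called there without replicate 3 of banding (0.35, adjusted p = 0.034) and without replicate 5 of sham (0.34, adjusted p = 0.0476). Leaving out the first 8-week sham library, which enters through the shared spread, also gave a call (adjusted p = 0.0446). Gata4 was not called at 4 weeks in the other 30 alternatives. Without the 7 libraries with high Myl7, its change there was 0.18 (adjusted p = 0.342). At 8 weeks it averaged 830.0 ± 69.3 in banding and 637 ± 120.1 in sham, a log2 fold change of 0.40 ± 0.12 (adjusted p = 0.0121), which was called under all 33 alternatives (0.34 to 0.50).

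Gata6 (NM_019185), a second GATA factor of heart muscle that is also made in smooth muscle and endocardium, had 269, 405, 342, 294 and 294 normalized counts in banded ventricles at 4 weeks, against 400.3, 510.0, 399, 354 and 369 in sham ventricles. The 8-week values of Gata6 were 334, 401, 297 and 367 in banded ventricles, against 642, 498, 427, 433 and 447 in sham ventricles. Only at 8 weeks did the groups not overlap. The log2 fold change was -0.34 ± 0.12 at 4 weeks (adjusted p = 0.058) and -0.47 ± 0.13 at 8 weeks (adjusted p = 0.008). The 4-week value stood close to the threshold and was called in 9 of the 33 alternatives, among them edgeR (adjusted p = 0.0475) and DESeq2 (adjusted p = 0.039), without replicate 2 of banding (adjusted p = 0.0183), without replicate 4 of sham (adjusted p = 0.0436) and without the same 8-week sham library (adjusted p = 0.0317). Without the 7 libraries with high Myl7, Gata6 was called at 4 weeks (-0.44, adjusted p = 0.0213) and not at 8 weeks (-0.38, adjusted p = 0.0788). In the authors' deposited table, Gata6 had an adjusted p of 0.0462 at 4 weeks and 0.00366 at 8 weeks.

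The ratio of Gata4 to Gata6 counts inside each library was 3.15, 2.00, 1.82, 2.50 and 2.78 in banded ventricles at 4 weeks, against 1.55, 1.33, 1.39, 1.61 and 2.03 in sham ventricles. At 8 weeks it was 2.18, 2.17, 2.97 and 2.29 in banded ventricles, against 1.30, 1.18, 1.56, 1.28 and 1.21 in sham ventricles. The means were 2.45 ± 0.55 in banding and 1.58 ± 0.28 in sham at 4 weeks, with an overlap, and 2.40 ± 0.38 in banding and 1.31 ± 0.15 in sham at 8 weeks, with none. The library richest in Myl7, which had the highest Gata4 and Gata6 counts of its group, had a ratio of 1.30, within the range of the other sham ventricles.

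**Figure D4:**
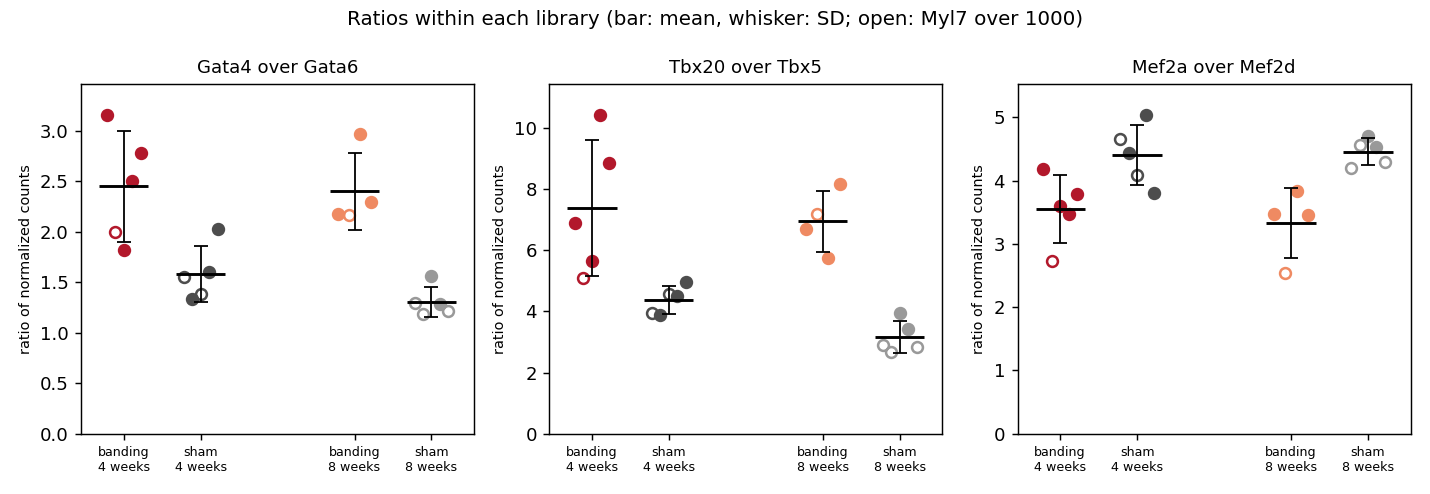
Ratios of normalized counts of 2 family members inside each library (y axes, from 0; no length correction), with banded ventricles left of sham ventricles at 4 and 8 weeks (x axis), means as bars, SD as whiskers and the 7 libraries with more than 1000 Myl7 counts as open circles. Tbx20 over Tbx5 separates the groups at both times, and the other ratios separate them at 8 weeks.

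Nkx2-5 and the HAND genes were not called in any comparison. Nkx2-5 (NM_053651), the homeodomain partner of GATA4 and TBX5, averaged 203 ± 22.7 normalized counts in banding and 229 ± 28.9 in sham at 4 weeks, and 205 ± 12.6 in banding and 226 ± 18.2 in sham at 8 weeks. Its log2 fold change was -0.18 ± 0.10 at 4 weeks (limma, adjusted p = 0.232) and -0.14 ± 0.10 at 8 weeks (adjusted p = 0.329), and the 95% intervals reached down to -0.38 and -0.35. Hand2 (NM_022696) ranged from 35.6 to 73.3 in banded ventricles at 4 weeks, against 36.6 to 62.4 in sham ventricles, and from 40.7 to 73.5 in banded ventricles at 8 weeks, against 55.4 to 82.2 in sham ventricles. Its log2 fold change was 0.05 ± 0.19 at 4 weeks (adjusted p = 0.893) and -0.35 ± 0.20 at 8 weeks (adjusted p = 0.21). The 95% intervals were -0.35 to 0.45 at 4 weeks and -0.77 to 0.08 at 8 weeks, and 28 to 110 reads per library stood behind the values.

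Hand1 (NM_021592) had 9 reads in all, in 6 of the 19 libraries, and no library had more than 3. It had 0, 0, 1.85, 0 and 0 normalized counts in banded ventricles at 4 weeks, against 0, 0.811, 0.781, 0 and 0 in sham ventricles, and 0, 1.43, 0.668 and 0 in banded ventricles at 8 weeks, against 0, 0, 0, 0 and 2.36 in sham ventricles. No difference between groups can be read from so few reads.

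The second question of the design was how the genes differ with time. Of the 8 tested genes, 0 were called between 8 and 4 weeks in banding, where 1.14% of all IDs were called, and 0 between 8 and 4 weeks in sham, where 6.53% were called (limma). In sham, 2.67% of all IDs were called higher and 3.86% lower. At an unadjusted p under 0.05 there were 0 of the 8 in banding, beside 14.0% of all IDs, and 2 in sham, beside 21.3%, and edgeR and DESeq2 also called 0 in both. Libraries of 8 and 4 weeks did not overlap for 0 of the 8 in either group, beside 5.27% of all IDs in banding and 6.47% in sham. In sham ventricles, Hand2 averaged 72.6 ± 10.7 normalized counts at 8 weeks and 52.9 ± 10.9 at 4 weeks, a log2 fold change of 0.46 ± 0.19 (unadjusted p = 0.0258, adjusted p = 0.161). Gata6 averaged 489 ± 89.8 at 8 weeks and 407 ± 61.1 at 4 weeks in sham, a log2 fold change of 0.26 ± 0.12 (unadjusted p = 0.0481, adjusted p = 0.229). Without the 7 libraries with high Myl7, these sham changes were 0.08 for Gata6 (adjusted p = 0.86) and 0.33 for Hand2 (adjusted p = 0.665). Leaving out only replicate 1 of sham at 8 weeks gave 0.16 for Gata6 (adjusted p = 0.479). Tbx20 had a log2 fold change of -0.32 ± 0.16 between 8 and 4 weeks in sham (adjusted p = 0.263). It was -0.52 and called (adjusted p = 0.0157) once the first 8-week sham library was left out. Without all 7 libraries with high Myl7, the Tbx20 change was -0.56 and not called (adjusted p = 0.107).

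The difference between the banding effect at 8 weeks and that at 4 weeks was called for 0 of the 8 genes, beside 0.0275% of all IDs (limma; 0 at an unadjusted p under 0.05, beside 11.7% of all IDs, and 0 in edgeR and DESeq2). For Tbx20 it was 0.42 ± 0.24 on the log2 scale (adjusted p = 0.50), and for Hand2 it was -0.40 ± 0.28 (adjusted p = 0.60). For Mef2a it was -0.12 ± 0.10 and for Tbx5 -0.01 ± 0.30, whose sign changed under 13 of the alternatives. Gata4 and Gata6, called at 8 weeks only, thus were not shown to respond differently at the 2 times.

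Cofactors of the GATA, T-box and MEF2 proteins were followed in a list of 26 DNA-binding partners and coactivators, of which 22 were tested. At 4 weeks 2 rose and 2 fell (median log2 fold change -0.01, beside 0.00 over all genes). At 8 weeks 6 rose and 2 fell (median 0.13, beside 0.01). The shares over all IDs were 9.27% higher and 9.82% lower at 4 weeks, and 16.7% and 16.6% at 8 weeks. Zfpm1, a cofactor that binds GATA proteins, averaged 134 ± 11.5 normalized counts in banding and 82.9 ± 21.8 in sham at 8 weeks, a log2 fold change of 0.72 ± 0.15 (adjusted p = 0.000668). Zfpm2, the related cofactor of heart muscle, averaged 165 ± 25.8 in banding and 208 ± 24.0 in sham at 4 weeks, a log2 fold change of -0.34 ± 0.11 (adjusted p = 0.0353). Lmcd1, a LIM protein that binds GATA6 in mice, rose by 0.66 ± 0.13 at 4 weeks (adjusted p = 0.00109) and by 0.61 ± 0.14 at 8 weeks (adjusted p = 0.00192). Wwtr1, the coactivator TAZ, which binds TBX5, rose by 0.47 ± 0.08 at 8 weeks (adjusted p = 0.000127). Ankrd1, a stretch-responsive nuclear cofactor, rose by 2.27 ± 0.15 at 4 weeks and 2.18 ± 0.16 at 8 weeks, and Srf, the serum response factor, fell by 0.24 ± 0.08 at 4 weeks (adjusted p = 0.0377). At the other time Srf stood at 0.01 (8 weeks, adjusted p = 0.919), Zfpm2 at -0.28 (8 weeks, adjusted p = 0.0761), Zfpm1 at 0.09 (4 weeks, adjusted p = 0.719) and Wwtr1 at 0.12 (4 weeks, adjusted p = 0.309). The calls of Srf and Zfpm2 at 4 weeks were lost in fits of only the groups compared (adjusted p = 0.0552 and 0.0502). That of Srf was also lost without any 1 of replicates 2, 3 and 5 of banding or 1, 2, 4 and 5 of sham (adjusted p = 0.0535 to 0.126), and that of Zfpm2 without any 1 of replicates 1, 3, 4 and 5 of banding or 2 and 5 of sham (0.067 to 0.106). Without the 7 libraries with high Myl7, Srf at 4 weeks (-0.22, adjusted p = 0.133) and Lmcd1 at 8 weeks (0.52, adjusted p = 0.0694) were not called.

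Of 23 other transcription factors of chambers and conduction tissue, 15 were tested, and 2 rose and 2 fell at 4 weeks (median log2 fold change 0.17, beside 0.00 over all genes). At 8 weeks 4 rose and 2 fell (median 0.24, beside 0.01). Over all IDs, 9.27% were called higher and 9.82% lower at 4 weeks, and 16.7% and 16.6% at 8 weeks. Gata5, the third GATA factor of the heart and known from its endocardium, averaged 216 ± 28.7 normalized counts in banding and 313 ± 58.6 in sham at 4 weeks, and 194 ± 41.9 in banding and 322 ± 29.9 in sham at 8 weeks. It fell by 0.52 ± 0.13 at 4 weeks (adjusted p = 0.00598) and by 0.75 ± 0.14 at 8 weeks (adjusted p = 0.000213), so that Gata5 and Gata6 were lower and Gata4 higher in banded ventricles at 8 weeks. Irx4, the homeobox gene of the ventricles, rose by 0.72 ± 0.12 at 4 weeks (adjusted p = 0.000179) and by 0.39 ± 0.13 at 8 weeks (adjusted p = 0.0223). Hopx, a homeodomain protein that does not bind DNA and lies downstream of NKX2-5 in mice, rose by 0.81 ± 0.19 at 4 weeks (adjusted p = 0.00344) and by 1.14 ± 0.20 at 8 weeks (adjusted p = 0.000106). Hey2, a repressor of the compact ventricular wall, fell by 0.49 ± 0.15 at 4 weeks (adjusted p = 0.0207) and by 0.52 ± 0.16 at 8 weeks (adjusted p = 0.0133), and neither call held without the 7 libraries with high Myl7 (-0.38 and -0.20, adjusted p = 0.0882 and 0.462). Its 4-week call was also lost without replicate 1 of banding or 3 of sham (adjusted p = 0.0553 and 0.0545), and its 8-week call without replicate 3 of banding (-0.33, adjusted p = 0.0791). Prrx1, a homeobox gene of fibroblasts, rose by 0.96 ± 0.23 at 8 weeks (adjusted p = 0.00274) and stood at 0.34 at 4 weeks (adjusted p = 0.324).

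**Figure D5:**
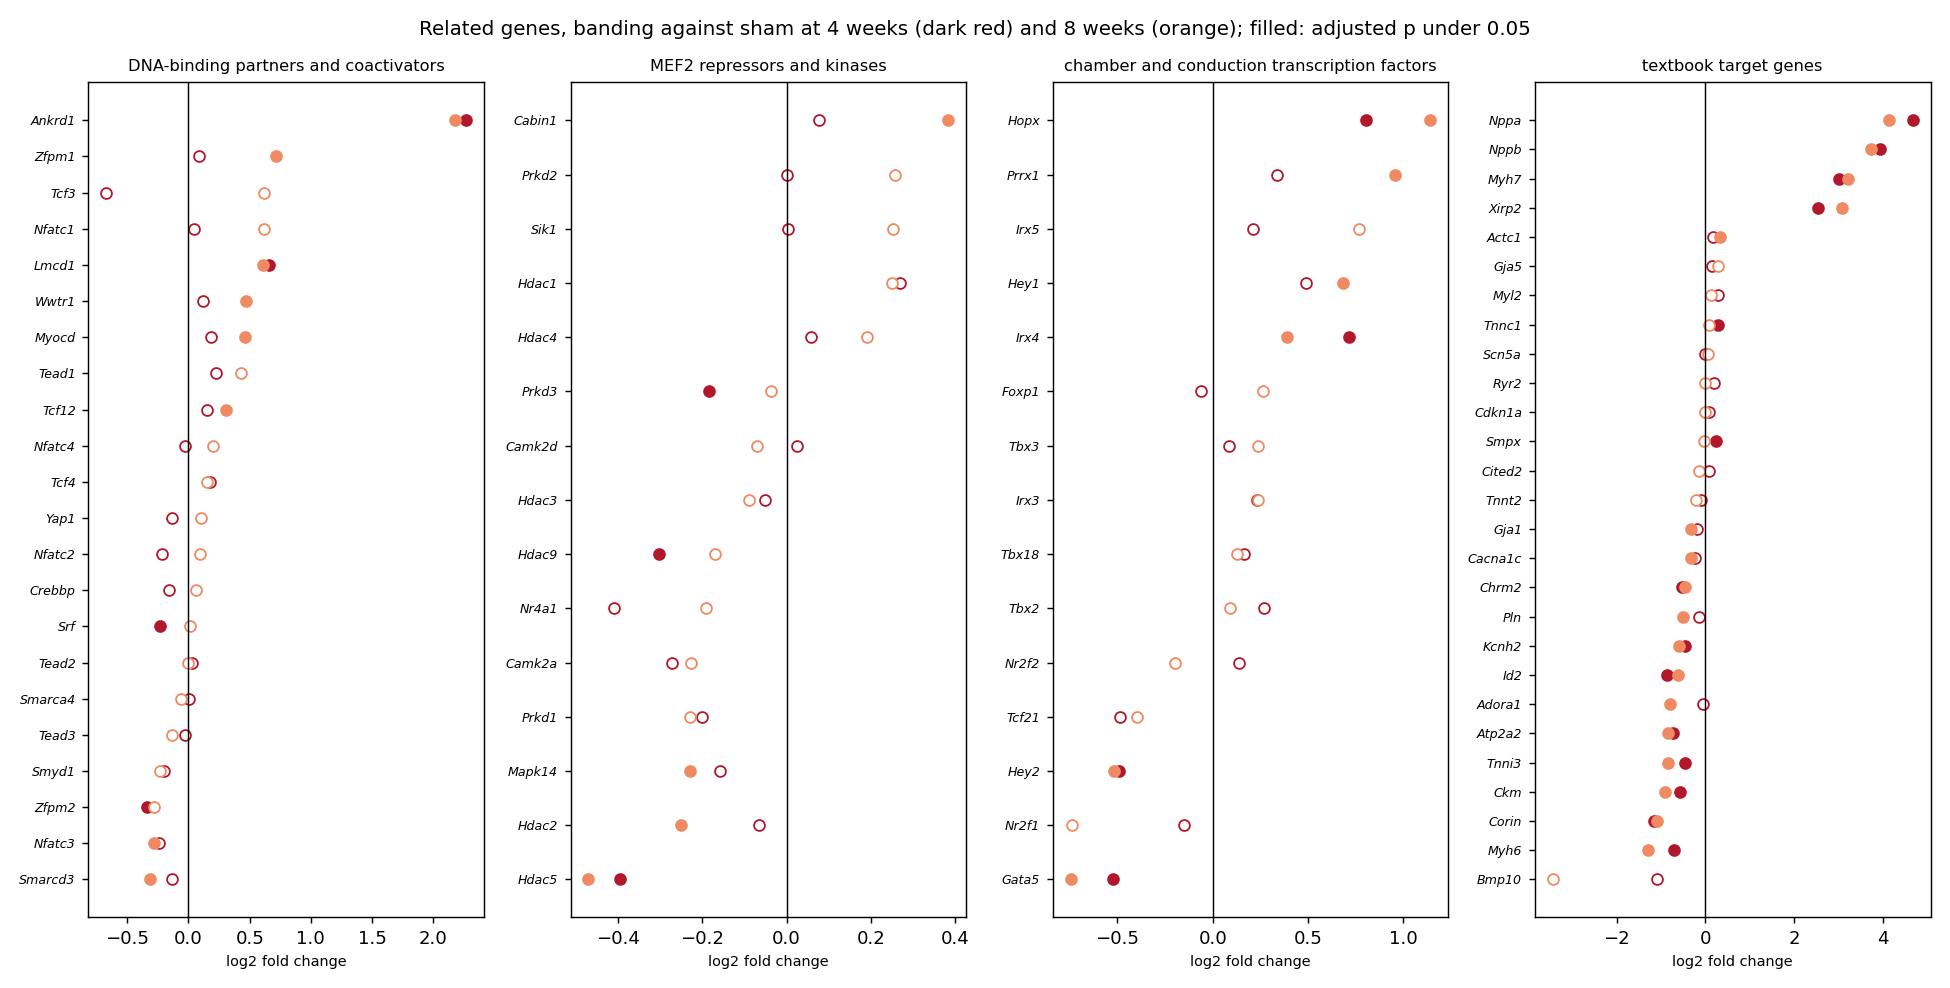
Log2 fold change of banded against sham ventricles (x axes, different ranges) for the tested genes of 4 lists (y axes), dark red for 4 weeks and orange for 8 weeks, filled where the adjusted p was under 0.05. Partners with filled points at 8 weeks lie mostly to the right of 0 (of 22 tested, 6 rose and 2 fell). Filled target genes lie mostly to the left (of 27 tested, 5 rose and 12 fell). Of all IDs, 16.7% were called higher and 16.6% lower at 8 weeks.

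Several textbook targets of the heart factors changed by more than any of the factors. Of 29 listed, 27 were tested, and 6 rose and 8 fell at 4 weeks (median log2 fold change -0.04, beside 0.00 over all genes). At 8 weeks 5 rose and 12 fell (median -0.22, beside 0.01). The shares over all IDs were 9.27% higher and 9.82% lower at 4 weeks, and 16.7% and 16.6% at 8 weeks. Xirp2, a target of MEF2A in mice, rose by 2.54 ± 0.21 at 4 weeks and by 3.08 ± 0.22 at 8 weeks, while Mef2a itself was lower. Nppb, a natriuretic peptide gene with GATA sites, rose by 3.95 ± 0.37 at 4 weeks, and Myh7, the slow myosin heavy chain, rose by 3.02 ± 0.16 at 4 weeks and 3.22 ± 0.17 at 8 weeks. Id2, a target of TBX5 and NKX2-5 in the conduction system of mice, averaged 108 in banding and 198 in sham at 4 weeks, a fall of 0.86 ± 0.11 (adjusted p = 4e-06). Ckm, the muscle creatine kinase bound by MEF2 proteins, fell by 0.92 ± 0.09 at 8 weeks (adjusted p = 1.13e-07). Myh6, the fast chain with GATA and MEF2 sites, fell by 1.30 ± 0.13 at 8 weeks (adjusted p = 7e-08), and by 0.78 under quantile normalization.

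Genes whose profile over the 19 libraries came nearest to that of a called member were looked up among 8306 genes with a mean of at least 50, by the root mean square difference of centred log2 values. For Mef2a they were Nceh1, Anxa11 and Ogt (0.09, 0.10 and 0.11, beside a spread of Mef2a itself of 0.26), and Ogt encodes the enzyme that adds N-acetylglucosamine to nuclear and cytosolic proteins. Those of Gata6 included Stat5a and Adcy5 (0.13 and 0.16, beside 0.30), and Adcy5 encodes a cardiac adenylyl cyclase. Rab3gap2, Npepps and Mical2 came nearest to Gata4 (0.12, 0.12 and 0.13, beside 0.24). For Tbx5 they were Zfp423, Slc25a23 and Lifr (0.25, 0.26 and 0.27, beside 0.54). The groups and libraries are shared by all these profiles, and the values are a description only.

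Some markers of other cells were called after banding too, and their part in the members' changes was not tested. Of all IDs, 9.27% were called higher and 9.82% lower at 4 weeks, and 16.7% and 16.6% at 8 weeks. An unadjusted p under 0.05 (limma) was found for 30.4% of all IDs at 4 weeks and 42.2% at 8 weeks. The fibroblast and node counts below lie near the shares called. Of 10 macrophage markers 7 rose at 4 weeks and 9 at 8 weeks, with summed normalized counts of 3962 to 5041 in banding and 2355 to 4254 in sham at 4 weeks, and 4655 to 5502 in banding and 2430.4 to 3345 in sham at 8 weeks. Of 10 endothelial and endocardial markers 2 rose at 4 weeks and 7 at 8 weeks, with sums of 12066 to 15869 in banding and 10548 to 12567 in sham at 4 weeks, and 12130 to 16862 in banding and 9462 to 10392 in sham at 8 weeks. Of 10 smooth muscle and pericyte markers 4 rose at 4 weeks and 5 at 8 weeks, with sums of 10056 to 11290 in banding and 8327 to 18981 in sham at 4 weeks, and 10975 to 12056 in banding and 8340 to 10771 in sham at 8 weeks. Ventricular muscle markers had sums of 416390 to 485687 in banding and 452488 to 606992 in sham at 4 weeks, and 370692 to 420784 in banding and 541386 to 630803 in sham at 8 weeks, with 2 of 9 tested higher and 4 lower at 8 weeks. Of 9 fibroblast markers 1 rose and 2 fell at 4 weeks, and 1 rose and 1 fell at 8 weeks, and of 13 atrial markers 2 rose and 3 fell at each time. Of 5 node and conduction markers tested, 0 rose and 1 fell at 4 weeks, and 1 rose and 0 fell at 8 weeks (1 and 2 had an unadjusted p under 0.05). Of 7 red cell markers, 0 were called at 4 weeks (limma, 0 at an unadjusted p under 0.05) and 5 rose at 8 weeks. No marker with a row was at 0 in all 19 libraries.

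The same 9 genes had rows in the authors' deposited tables of comparisons. In the authors' deposited table for 4 weeks, the log2 fold change of banding over sham was -0.73 for Tbx5 (adjusted p = 0.00131), -0.43 for Mef2a (adjusted p = 1.98e-07) and 0.26 for Gata4 (adjusted p = 0.0817). The authors' deposited table for 8 weeks gave -0.80 for Tbx5 (adjusted p = 0.000413), -0.54 for Mef2a (adjusted p = 1.64e-10), 0.38 for Gata4 (adjusted p = 0.00664) and 0.22 for Tbx20 (adjusted p = 0.341).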

How the data were processed

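Per the labels' protocols, snap-frozen right ventricle was extracted with Trizol and libraries were made from 800 ng of RNA by a kit that depletes ribosomal RNA. STAR, DESeq2 and the build rn6 are named in the submitters' processing notes. How reads were counted, and whether by strand, is not given in the sources used here, so overlapping and antisense genes cannot be told apart. The authors deposited normalized counts, a signal in which reads are scaled by each library's size factor, and comparison tables with a log2 fold change, its standard error and Wald statistic (scores), and p-values. The direction of each deposited comparison was set from the group means. All positive deposited values (100%) were whole multiples of 1 step within 0.001, so reads were recovered for edgeR 4.0.16 and DESeq2 1.42.0.

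On the log2(value + 1) scale the deposited values went into limma 3.58.1 (R 4.3.3, empirical Bayes with a trend, 2-sided), all 4 groups in 1 model. The 10926 IDs that reached 10 in 4 or more libraries were tested. Fold changes are on that scale, which understates low genes. Calls were made at 0.05 on p-values adjusted by Benjamini-Hochberg over all IDs, in 5 comparisons. The script was tested on simulated data. Libraries with over 1000 Myl7 counts were taken as rich in atrial transcripts. Symbols came from the deposited tables. The members, the 12 gene lists, the thresholds and the tests were chosen with earlier results of these data known. Of the 4 lists of related genes, the text names up to 4 called genes with the smallest p per list and comparison, and the 3 nearest genes per called member, of which 1 is not reported here. Alternatives were pseudocounts of 0.5 and 5, no filter, a mean of at least 50, TMM and quantile scaling, a robust fit, replicate numbers as a block, only the groups compared, edgeR, DESeq2, all IDs of a gene summed, an atrial score as a covariate, leaving out the libraries rich in atrial transcripts, and leaving out each library.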

Additional observations from a re-analysis of the deposited data

Results flagged for a closer look

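Each member was checked in each group for a highest or lowest library far from the rest, 36 checks in all, of which chance flags about 1 in 20. Nkx2-5 was 223.6 normalized counts in replicate 3 of banding at 8 weeks, and the nearest library of that group had 200.5. Hand1 was 1.85 in replicate 3 of banding at 4 weeks (2 reads), where the other libraries had 0. Hand1 was 2.36 in replicate 5 of sham at 8 weeks (3 reads), where the other libraries had 0. Where all other libraries of a group have 0, the rule flags the library with reads in any case. The rate of 1 in 20 thus does not hold for Hand1.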

How the results depend on the processing

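Mef2a at both times, Tbx5 at 4 weeks and Gata4 at 8 weeks stayed called, in the same direction, under all 33 alternatives. The calls lost were those of Tbx5 and Gata6 at 8 weeks without the libraries rich in atrial transcripts, which left 2 members called in place of 4; fewer libraries entered that fit. Leaving out 1 library gave 2 to 4 members called at 4 weeks, 4 to 5 at 8 weeks and 0 to 1 between 8 and 4 weeks in sham, the highest each time without replicate 1 of sham at 8 weeks. Changes that were not called and changed sign were Hand2 at 4 weeks (-0.20 without the rich libraries, -0.070 to 0.20 with 1 library left out) and the Tbx5 difference of effects (0.034 with the replicate block, 0.14 with the atrial score, 0.48 without the rich libraries, -0.17 to 0.21 with 1 library left out); the cause was not tested.

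Over all genes, those called between 8 and 4 weeks in banding (125) numbered 64 with no filter, 271 in DESeq2, 286 with the atrial score, 50 without the rich libraries and 38 to 150 with 1 library left out. In sham (714) they numbered 1082 with the atrial score, 157 without the rich libraries and 423 to 848 with 1 left out. For the difference of effects (3) they numbered 5 with TMM, 6 with quantile scaling, 89 in DESeq2, 150 with the atrial score and 2 to 23 with 1 left out. The median log2 fold change of all genes moved by less than 0.1 under every scaling. Each scaling centres the bulk of genes, so that this median could hardly move and does not bear on single genes.

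Same-numbered libraries did not deviate together as a rule. Over 27 pairs the correlation ran from -0.28 to 0.32, with a median of 0.02 and 7 over 0.1. No pairing by number was seen, but a pairing that leaves little trace over all genes would be missed by this measure. With the replicate block, 3 members were called at 4 weeks, Gata6 with an adjusted p of 0.0322 added, and 4 at 8 weeks. Hand1 had 9 reads in all, too few to test.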

Other observations

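Between 8 and 4 weeks, 6 changes were called in the 4 lists of related genes. Of all IDs, 1.14% were called in banding and 6.53% in sham. The values without the libraries rich in atrial transcripts, from fewer libraries, stand beside each, and in none of the 6 was the call kept there. In banded ventricles Myh7 rose by 0.81 ± 0.17 on the log2 scale (limma, adjusted p = 0.0212), against 0.72 without those libraries (adjusted p = 0.102). Xirp2 rose by 0.97 ± 0.22 there (adjusted p = 0.0316), against 0.69 (adjusted p = 0.247). In sham ventricles Myh7 rose by 0.60 ± 0.16 (adjusted p = 0.0247), against 0.93 (adjusted p = 0.0549). Ryr2, the calcium release channel, rose by 0.33 ± 0.08 in sham (adjusted p = 0.0149), against 0.36 (adjusted p = 0.105). Wwtr1 fell by 0.35 ± 0.08 in sham (adjusted p = 0.00993), against -0.29 (adjusted p = 0.178), and Prkd3 fell by 0.25 ± 0.06 (adjusted p = 0.0157), against -0.29 (adjusted p = 0.111).

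Other settings also ended some of these calls. That of Myh7 in banding was lost with no filter (adjusted p = 0.0518), in a fit of only the groups compared (0.0519) and without replicate 5 at 4 weeks or 3 or 4 at 8 weeks (0.0562 to 0.0737). That of Xirp2 in banding was lost with no filter (adjusted p = 0.0585), in a robust fit (0.0815), in a fit of only the groups compared (0.102) and without replicate 2, 3 or 5 at 4 weeks or 3 or 4 at 8 weeks (0.0557 to 0.119). That of Myh7 in sham was lost with no filter (adjusted p = 0.0555), under quantile scaling (0.0806) and without replicate 1, 4 or 5 at 4 weeks or 3 or 4 at 8 weeks (0.0543 to 0.0801).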
